A study of Mus musculus with 96 samples.

Results

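Hematopoietic cells (HCs) of the mouse heart were compared between day 3 (D3) after myocardial infarction and day 0 (D0). Small RNA had been sequenced in 96 libraries of 4 cardiac cell types at 6 time points, and the comparison used 7 of them, 3 of HCs at D0 and 4 of HCs at D3. Its features were all 1978 mature miRNAs that the count tables list, of which 1282 had at least 1 count in these 7 libraries and 635 passed the filter on low counts and were tested. The animals were male C57Bl/6J mice of 12 to 14 weeks. D0 mice were not operated on, and D3 mice had a permanent ligation of the left anterior descending coronary artery, so the surgery and the infarct cannot be told apart in this comparison. HCs were the cells that anti-CD45 magnetic beads bound after digestion of the heart. RNA of 3 mice (2 when a sample was missing) was pooled for each library, and the pools of D0 and D3 came from different mice. The methods call the 4 pools of a group both biological and technical replicates, so the p-values measure the spread between pools.

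Of the 4 libraries of HCs at D0, replicate 3 held 18286 counts and was left out by a minimum of 100000. The other D0 libraries, replicates 1, 2 and 4, held 26449253 to 29504666 counts, and the D3 libraries held 3245029 to 24081381. Reads that matched no mature miRNA made up 34.3% to 39.6% of the reads at D0 and 59.3% to 62.5% at D3. This share moved with the day, and its part in the results below was not tested. The 10 most abundant miRNAs held 52.4% to 53.3% of the counts at D0 and 56.4% to 60.0% at D3. Distances between libraries were root-mean-square differences of log2 expression levels over the miRNAs that passed the filter. They ran from 0.50 to 1.04 within a day and from 1.31 to 1.68 between the days.

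A miRNA is a short RNA cut from a hairpin precursor, whose 5′ arm gives the 5p and whose 3′ arm gives the 3p product. Loaded into an Argonaute protein, it pairs with target mRNAs mainly through its seed, bases 2 to 8 from the 5′ end, and lowers their stability and translation. miRNAs with the same seed can share targets and are grouped into families, and miRNAs from neighbouring hairpins are often cut from one transcript. After an infarct, neutrophils and then monocytes enter the heart and join the macrophages and lymphocytes that live there, and the best known miRNAs of these cells are miR-142, miR-223, miR-150 and miR-155. The libraries hold RNA of all CD45-bound cells together, so fewer cells of a type and less RNA per cell cannot be told apart.

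The mature sequences on which the results turn are given first, from RefSeq (GRCm38.p6), which held a sequence for 515 of the 635 tested miRNAs. They are written 5′ to 3′ with the seed in capitals. The first set holds miRNAs that rose at D3, among them the hypoxia-induced miR-210-3p, both strands of miR-21a and the leukocyte miRNAs miR-142a-5p and miR-223-3p.
miR-210-3p: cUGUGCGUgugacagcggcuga
miR-147-5p: uGGAAACAuuucugcacaaacuag
miR-340-5p: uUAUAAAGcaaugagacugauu
miR-142a-5p: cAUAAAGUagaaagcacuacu
miR-223-3p: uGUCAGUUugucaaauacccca
miR-21a-5p: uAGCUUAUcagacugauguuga
miR-21a-3p: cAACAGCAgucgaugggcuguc
The second set shows families whose members share a seed and moved in the same direction. miR-7a-5p and miR-7b-5p, the miR-17 group and the miR-221 pair rose, and the miR-125 and miR-99 groups fell. The miR-146 pair is shown with them because miR-146a-5p fell while the direction of miR-146b-5p depended on the scaling.
miR-7a-5p: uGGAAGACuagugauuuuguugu
miR-7b-5p: uGGAAGACuugugauuuuguuguu
miR-17-5p: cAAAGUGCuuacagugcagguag
miR-20a-5p: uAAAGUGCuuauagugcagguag
miR-93-5p: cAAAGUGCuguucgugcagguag
miR-106b-5p: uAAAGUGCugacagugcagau
miR-221-3p: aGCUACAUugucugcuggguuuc
miR-222-3p: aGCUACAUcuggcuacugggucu
miR-125a-5p: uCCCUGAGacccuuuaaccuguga
miR-125b-5p: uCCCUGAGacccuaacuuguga
miR-99a-5p: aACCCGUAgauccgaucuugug
miR-100-5p: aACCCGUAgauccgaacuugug
miR-146a-5p: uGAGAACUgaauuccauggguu
miR-146b-5p: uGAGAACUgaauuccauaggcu
The third set shows miRNAs that share a seed and were called in opposite directions.
let-7b-5p: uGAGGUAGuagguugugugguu
let-7c-5p: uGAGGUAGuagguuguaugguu
let-7i-5p: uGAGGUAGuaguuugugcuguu
miR-98-5p: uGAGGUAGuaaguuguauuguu
miR-15a-5p: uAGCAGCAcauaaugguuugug
miR-15b-5p: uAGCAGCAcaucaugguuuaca
miR-195a-5p: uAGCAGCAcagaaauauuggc
miR-148b-3p: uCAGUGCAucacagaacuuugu
miR-152-3p: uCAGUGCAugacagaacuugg
Outside the seed some of these relatives differ by a single base. Counted from the 5′ end, the change from miR-7a-5p to miR-7b-5p is A10U with 1 further base at the 3′ end of miR-7b-5p, and that from let-7b-5p to let-7c-5p is G17A. Reads of such close relatives can be assigned to the wrong member.

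Of the 635 tested miRNAs, 373 differed between D3 and D0 at an adjusted p under 0.05 (58.7%), with 197 higher (31.0%) and 176 lower (27.7%) at D3. The test was the quasi-likelihood test of edgeR, adjusted by Benjamini-Hochberg and fitted on the 23 HC libraries of all days, and it gave all adjusted p-values of single miRNAs below. A difference of at least 2-fold was called for 147 of the higher and 132 of the lower miRNAs. The CPM (a miRNA's counts divided by the library's summed counts and scaled to 1000000) of D0 and D3 did not overlap for 187 of the higher and 111 of the lower miRNAs. Among the 161 tested miRNAs averaging 100 CPM or more, 38 were higher and 69 lower. Over all tested miRNAs the log2 fold changes had a median of 0.05. The fit scales libraries by TMM factors, which were 0.75 to 0.78 at D0 and 1.02 to 1.20 at D3. Scaling by library size alone (library size scaling) gave a median of 0.59, with 296 miRNAs higher and 105 lower. All 197 higher and 105 of the 176 lower calls were also made in that direction with this scaling, and 8 of the lower calls had a positive value there. Fold changes below are on the TMM scale, while CPM values are not TMM-scaled, so a miRNA can have a higher CPM at D3 and a log2 fold change near 0.

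**Figure D1:**
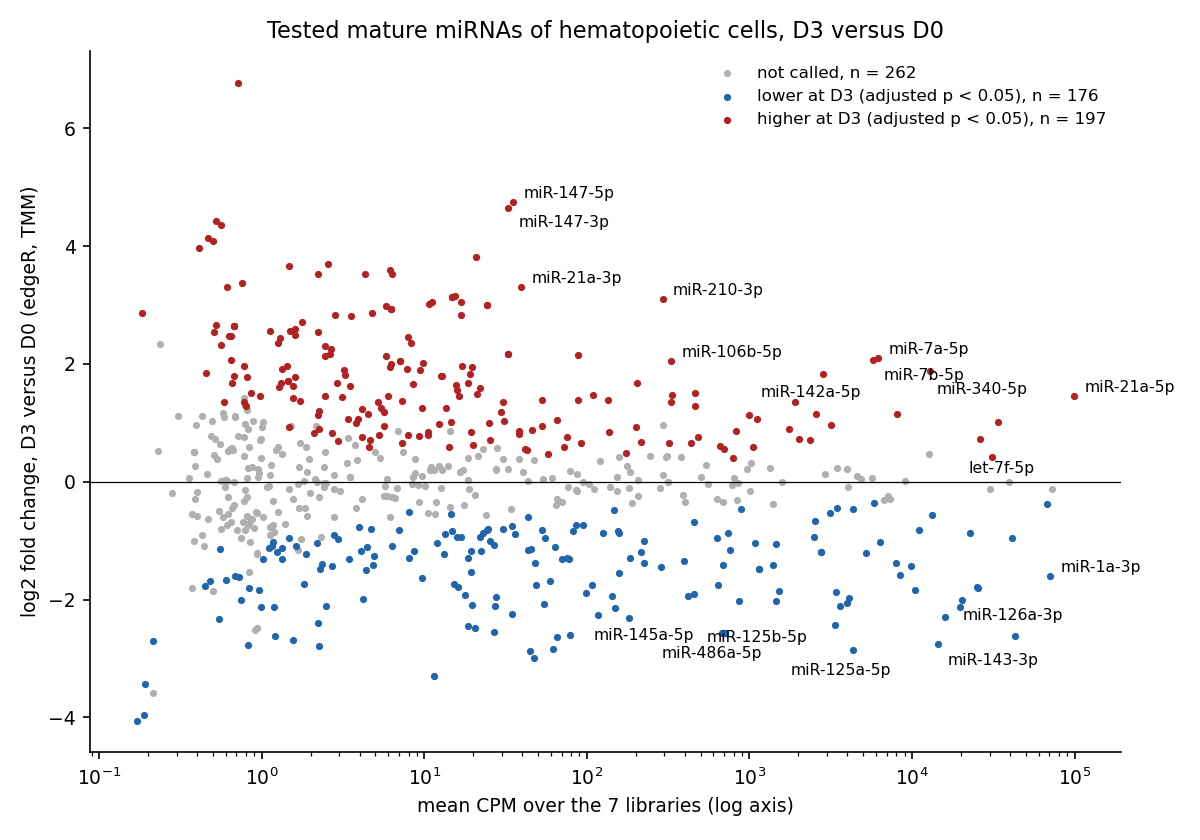
Each point is 1 of the 635 tested miRNAs, with its mean CPM over the 7 libraries on a log axis and its log2 fold change from D0 to D3 on the TMM scale. Red marks the 197 higher, blue the 176 lower and grey the 262 miRNAs not called, and miR-147, miR-21a-3p and miR-210-3p stand highest among the labelled ones.

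Among miRNAs averaging 100 CPM or more, the largest rise was that of miR-210-3p, the miRNA that HIF transcription factors induce in hypoxia. Its hairpin lies at chr7:141221384-141221493 on the minus strand (GRCm38), outside annotated genes of that strand. It stood at 37.7, 37.3 and 38.6 CPM at D0 and 447, 466, 258 and 759 CPM at D3. The D3 libraries spread widely, and the lowest was still far above all D0 libraries (log2 fold change 3.10 ± 0.26 (SE), adjusted p = 3.8e-10). The other arm, miR-210-5p, rose as well, from 0.830 ± 0.456 CPM (SD, n = 3) to 9.55 ± 1.58 CPM (n = 4) (log2 fold change 2.98).

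miR-7a-5p and miR-7b-5p, which share the miR-7 seed, rose together. miR-7a-5p was measured at 1708, 1198 and 1745 CPM at D0 and 10904, 9075, 9074 and 9705 CPM at D3, an increase of 4.30-fold (log2 fold change 2.10 ± 0.16 (SE), adjusted p = 1.6e-10). The D3 values lay within a narrow band, and the groups did not overlap. miR-7b-5p gave 1464 ± 295 CPM (SD, n = 3) at D0 and 8938 ± 858 CPM (n = 4) at D3 (log2 fold change 2.07 ± 0.16 (SE), adjusted p = 1.7e-10). The 2 differ by 1 base within the shorter one and had nearly the same count in each library, so how far each of them rose is uncertain. All 3 tested miRNAs of this family were higher, beside 31.0% of all tested miRNAs. The remaining one, miR-7a-1-3p, had a log2 fold change of 0.62.

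miR-340-5p, whose hairpin lies in an intron of Rnf130 (chr11:50069702-50069799, plus strand), was measured at 4223, 3598 and 3269 CPM at D0 and 17514, 19186, 16684 and 25683 CPM at D3 (log2 fold change 1.87 ± 0.16 (SE), adjusted p = 7.6e-10). All D3 libraries were well above the D0 libraries. miR-21a-5p, a miRNA that stress and inflammation raise in many cell types, was the most abundant of all over the 7 libraries. It was read at 33419, 37301 and 39173 CPM at D0 and 137652, 153953, 108936 and 187085 CPM at D3 (log2 fold change 1.45 ± 0.18 (SE), adjusted p = 1.4e-07). The hairpin overlaps an annotated exon of Vmp1 (chr11:86584067-86584158, minus strand).

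miR-362-3p was recorded at 151, 108 and 101 CPM at D0 and 389.7, 456, 263 and 855 CPM at D3 (log2 fold change 1.47 ± 0.29 (SE), adjusted p = 0.00011). Its values at D3 spread widely and did not reach down to D0. miR-130b-5p had 40.4 ± 4.81 CPM (SD, n = 3) at D0 and 162 ± 14.2 CPM (n = 4) at D3 (log2 fold change 1.47 ± 0.30 (SE), adjusted p = 0.00019).

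**Figure D2:**
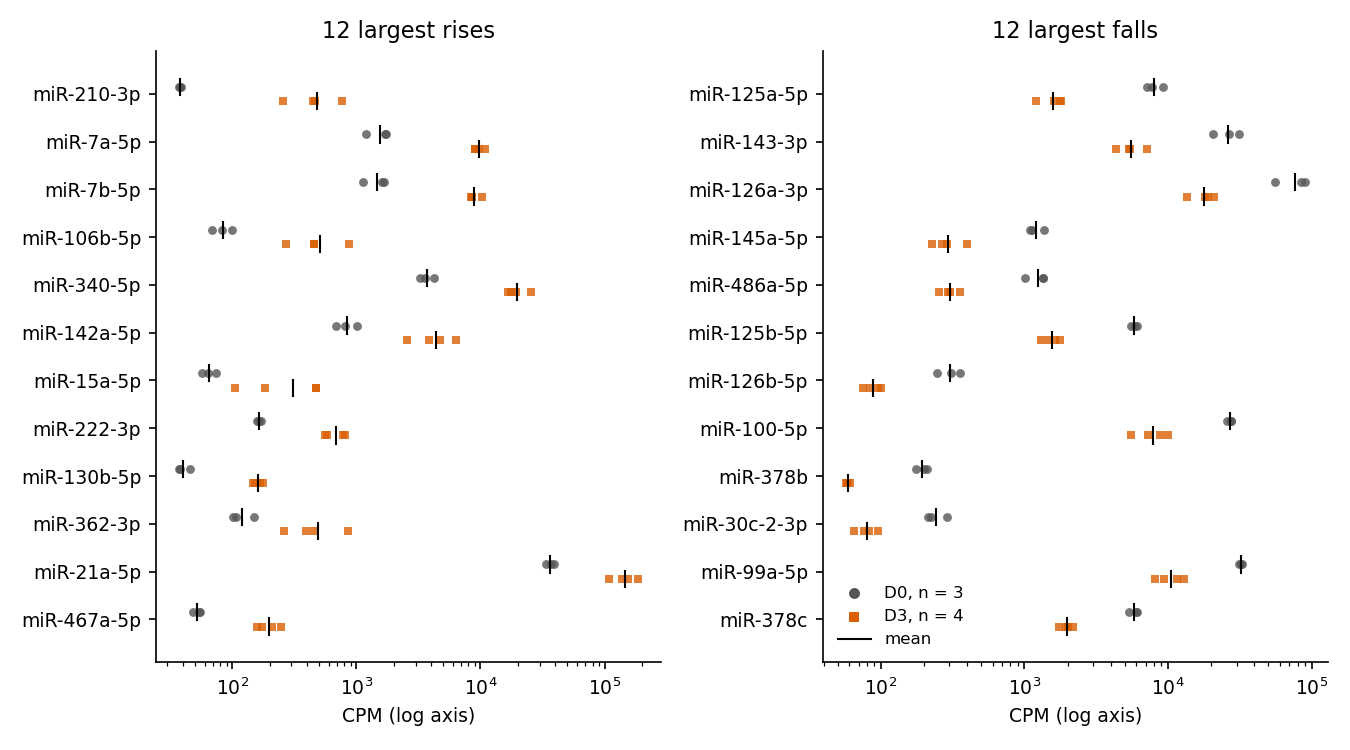
CPM on a log axis in each D0 library (grey circles, n = 3) and each D3 library (orange squares, n = 4) of the 12 largest rises and the 12 largest falls among miRNAs of 100 CPM or more on average whose groups did not overlap; black bars are means. miR-15a-5p shows the widest spread at D3, from 105 to 472 CPM.

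The 6 miRNAs used as markers of hematopoietic cells had their highest D0 mean in HCs. miR-142a-3p had a mean of 3559.6 CPM in HCs at D0, against 0.931 CPM in cardiomyocytes, 10.1 CPM in endothelial cells and 49.8 CPM in fibroblasts. miR-223-3p, a miRNA of neutrophils and other myeloid cells, had 747 CPM in HCs and under 1 CPM in each of the other 3 cell types at D0. The lymphocyte miRNAs separated the cell types less, with miR-150-5p at 2897 CPM in HCs and 2372 CPM in endothelial cells, and miR-342-3p at 369 and 314 CPM.

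Of the 5 pan-leukocyte and myeloid miRNAs, 4 rose at D3 and 1 did not pass the test, with a median log2 fold change of 1.25 against 0.05 over all tested miRNAs. The share called higher among all tested miRNAs was 31.0%. miR-142a-5p was measured at 1019, 809 and 679.9 CPM at D0 and 3822, 4728, 2555 and 6326 CPM at D3 (log2 fold change 1.82 ± 0.27 (SE), adjusted p = 2.3e-06). No D0 library came near the lowest D3 library. miR-142a-3p, cut from the same hairpin in an intron of Mir142hg (chr11:87756864-87756927, plus strand), stood at 4160.0, 3094 and 3425 CPM at D0 and 15223, 15310.3, 7937 and 7059 CPM at D3 (log2 fold change 1.14 ± 0.25 (SE), adjusted p = 0.00045). Its D3 values fell into a higher pair and a lower pair, both above D0. miR-142b, the fourth that rose, is annotated on the opposite strand of the same locus, and its log2 fold change was 1.25. Its sequence is the reverse complement of part of miR-142a-3p, and its means were 2.30 CPM at D0 and 7.81 CPM at D3. The products of this 1 locus are not separate observations, and whether the counts of miR-142b are reads of miR-142a-3p was not tested. miR-223-3p rose from 813, 675 and 753 CPM at D0 to 2949, 2669.9, 2065 and 3459 CPM at D3 (log2 fold change 1.35 ± 0.17 (SE), adjusted p = 3.1e-07). The opposite arm, miR-223-5p, had a log2 fold change of 0.09 (adjusted p = 0.75), and 0.61 under library size scaling, which passed the test.

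Of 13 tested lymphocyte miRNAs, none rose and 5 fell, with a median of -0.35, while 27.7% of all tested miRNAs were lower. Under library size scaling that median was 0.20, and 2 were higher and 1 lower. miR-181a-5p, known from thymocyte development, went from 6568 ± 574 CPM (SD, n = 3) at D0 to 4153 ± 398 CPM (n = 4) at D3 (log2 fold change -1.20 ± 0.35 (SE), adjusted p = 0.0051), a call that was lost under library size scaling (log2 fold change -0.66). miR-150-5p, abundant in mature lymphocytes, was read at 4024, 2242 and 2425 CPM at D0 and 3049, 2307, 2113 and 1198 CPM at D3. The groups overlapped, and its call (log2 fold change -0.94 ± 0.35, adjusted p = 0.024) was lost without D0 replicate 1 (-0.67), without D3 replicate 4 (-0.72) and under library size scaling (-0.42). miR-181b-5p and miR-181d-5p, which share the seed of miR-181a-5p, had log2 fold changes of -0.15 and -0.35 and did not pass the test.

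Of the inflammation-induced miRNAs, 6 of 14 were higher and 3 lower (median 0.78), beside 31.0% and 27.7% of all tested miRNAs. Under library size scaling 10 were higher and 1 lower (median 1.30). miR-147, which Toll-like receptor signalling induces in macrophages, had the largest rises of the list on both arms. This miRNA and miR-21a-3p were singled out after their values were seen. miR-147-5p was counted at 33, 28 and 70 counts at D0 and 392, 1250, 389 and 201 counts at D3, that is 1.25, 1.01 and 2.37 CPM at D0 and 66.5, 51.9, 62.4 and 61.9 CPM at D3 (log2 fold change 4.74 ± 0.32 (SE), adjusted p = 6.2e-11). Even the library with the fewest D3 reads held more counts of it than any D0 library. miR-147-3p gave 2.19, 1.09 and 1.29 CPM at D0 and 46.6, 45.8, 46.5 and 84.7 CPM at D3 (log2 fold change 4.64 ± 0.34 (SE), adjusted p = 1.6e-10). Their hairpin overlaps an exon of AA467197 (chr2:122640803-122640881, plus strand). miR-21a-3p, the rarer strand of miR-21a, increased 9.87-fold, from 3.74, 4.67 and 4.95 CPM at D0 to 53.1, 74.1, 29.4 and 106 CPM at D3 (log2 fold change 3.30 ± 0.33 (SE), adjusted p = 5.7e-09). Both 3p strands of the miR-132 and miR-212 locus, which lies within 1 transcript, also rose (1.18 and 1.63).

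miR-146a-5p, which NF-kappaB induces and which damps Toll-like receptor signalling, moved the other way. It stood at 36451, 28549 and 31504 CPM at D0 and 9945, 12401, 10990.5 and 13129.9 CPM at D3 (log2 fold change -2.01 ± 0.17 (SE), adjusted p = 5.6e-10). Every D3 library was far below the lowest D0 library. miR-146b-5p, with the same seed, had 3349 ± 173 CPM (SD, n = 3) at D0 and 3535 ± 491 CPM (n = 4) at D3, and its overlapping groups gave a log2 fold change of -0.45 ± 0.14 (adjusted p = 0.0086) that became 0.08 under library size scaling. The pair together held 31884 to 39979 CPM at D0 and 13046 to 16833 CPM at D3. miR-155-5p, a miRNA of activated macrophages and lymphocytes, was measured at 317, 102 and 122 CPM at D0 and 159, 142, 113 and 156 CPM at D3. Its lower call (log2 fold change -0.88 ± 0.31, adjusted p = 0.019) rested on D0 replicate 1 and was -0.23 without it (adjusted p = 0.54). It was also lost under library size scaling (-0.34) and in libraries thinned to the shallowest (-0.71). The macrophage miRNA miR-511-3p, from an intron of Mrc1, gave 317, 217 and 239.8 CPM at D0 and 517, 669, 293 and 1115 CPM at D3. The groups overlapped, and its call (log2 fold change 0.76 ± 0.30, adjusted p = 0.03) was lost without D0 replicate 2 or 4 and without D3 replicate 2, and fell to 0.42 without D3 replicate 4. It was also lost with the shallow D0 library kept (0.61).

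The miR-17-92 cluster and its paralogs, induced by MYC and E2F, had 12 of 22 tested members higher and none lower, with a median of 0.73. Of all tested miRNAs, 31.0% were higher and 27.7% lower. miR-106b-5p, cut from an intron of Mcm7, was read at 98.9, 83.1 and 69.1 CPM at D0 and 452, 456, 272 and 875 CPM at D3 (log2 fold change 2.05 ± 0.27 (SE), adjusted p = 4.5e-07). The lowest D3 library was well above D0. miR-20a-5p, with the same seed, stood at 1838, 1241 and 1568 CPM at D0 and 5276, 4672, 2647 and 5110.3 CPM at D3 (log2 fold change 0.96 ± 0.23 (SE), adjusted p = 0.0011). No D3 library fell into the D0 range. miR-17-5p and miR-93-5p had log2 fold changes of 1.07 ± 0.25 and 0.89 ± 0.19 (adjusted p = 0.00063 and 0.00025), and miR-18a-5p, chosen after its values were seen, of 2.15 ± 0.24. The 6 tested miRNAs with the miR-17 seed together held 2849 to 4054 CPM at D0 and 6259.9 to 12027 CPM at D3. miR-25-3p, the most abundant member of the list, did not pass the test (log2 fold change 0.10, adjusted p = 0.67), and passed it under library size scaling (0.63).

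miR-221 and miR-222, neighbours on the X chromosome that target the cell cycle inhibitor p27, rose on all 4 arms. miR-222-3p was measured at 171, 166 and 159 CPM at D0 and 777, 575, 560.3 and 813 CPM at D3 (log2 fold change 1.50 ± 0.14 (SE), adjusted p = 3.1e-09). The D0 values were nearly equal, and the D3 values all lay well above them. miR-221-3p gave 1123 ± 106 CPM (SD, n = 3) at D0 and 3643 ± 779.7 CPM (n = 4) at D3 (log2 fold change 1.15 ± 0.14 (SE), adjusted p = 1.9e-07). Of 7 tested members of the miR-130 and miR-301 family, 6 rose, beside 31.0% of all tested miRNAs, and miR-130a-3p fell (log2 fold change -1.64 ± 0.27). The values of miR-130b-5p were given above, and miR-130b-3p had 3.72 ± 1.04 CPM (SD, n = 3) at D0 and 19.2 ± 9.10 CPM (n = 4) at D3 (log2 fold change 1.80). Of the 6 tested members of the p53-linked miR-34 family, 2 rose and none fell, a share near the 31.0% of all tested miRNAs, with miR-34a-5p at 98.4 ± 4.81 CPM (SD, n = 3) at D0 and 276 ± 119.7 CPM (n = 4) at D3 (log2 fold change 0.92 ± 0.26, adjusted p = 0.0038).

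The list with the most members higher was that of the miR-297, miR-466, miR-467 and miR-669 families, many of whose hairpins lie in tandem copies in an intron of the imprinted gene Sfmbt2. GENCODE annotates 119 miRNA genes within Sfmbt2 (chr2:10370510-10595253, plus strand, GRCm38). RefSeq places miR-466k and miR-467h, which the list holds, on chromosomes 3 and 9. Of 80 listed members, 56 were tested, 53 were higher and none was lower, with a median log2 fold change of 2.51. Over all tested miRNAs 31.0% were higher. The levels of the members were low, and 24 listed ones did not pass the filter on low counts. A low member can pass that filter through the days on which it is high, which favours higher calls in this list. A single one, miR-467a-5p, had a mean of at least 100 CPM, and the median of the members' means was 5.47 CPM. miR-467a-5p stood at 53.8, 48.8 and 54.7 CPM at D0 and 211, 247, 174 and 159 CPM at D3 (log2 fold change 1.38 ± 0.28 (SE), adjusted p = 0.00018). The groups did not overlap. miR-669a-5p and miR-669p-5p, which had identical counts, gave 7.91 ± 2.46 CPM (SD, n = 3) at D0 and 51.5 ± 5.38 CPM (n = 4) at D3 (log2 fold change 2.17). miR-669c-5p was called higher (log2 fold change 1.03 ± 0.40, adjusted p = 0.031), and the call was lost without D0 replicate 1, 2 or 4 and without D3 replicate 2 or 3 (0.78 to 1.12). The members are near-copies of one another, 16 of the 56 shared identical counts with another miRNA, and 47 distinct count profiles remained, so they are not independent and reads may be counted for several of them. Summed over the list, they held 154 to 185 CPM at D0 and 786 to 1031 CPM at D3.

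The hairpins of miR-125, miR-99 and miR-100 lie beside let-7 genes in the genome, and all 9 tested members were lower at D3, with a median of -1.89. Among all tested miRNAs 27.7% were lower. miR-125a-5p had the largest fall of all non-overlapping miRNAs that averaged 100 CPM or more. It was measured at 7167, 7711 and 9179.6 CPM at D0 and 1620.0, 1775, 1786 and 1196 CPM at D3 (log2 fold change -2.86 ± 0.23 (SE), adjusted p = 1.7e-10). Its hairpin overlaps an exon of Spaca6 (chr17:17830812-17830879, plus strand). miR-125b-5p, of the same seed, stood at 5515, 5885 and 6056 CPM at D0 and 1492, 1772, 1645 and 1306 CPM at D3 (log2 fold change -2.44 ± 0.20 (SE), adjusted p = 2.3e-10). In both, each D3 library was far below every D0 library. miR-99a-5p, at 32084 ± 959 CPM (SD, n = 3) at D0 and 10517 ± 2198 CPM (n = 4) at D3, fell by 2.13 on the log2 scale (SE 0.19, adjusted p = 7.6e-10), and miR-100-5p, at 26841 ± 883 CPM (SD, n = 3) at D0 and 7892 ± 1932 CPM (n = 4) at D3, fell by 2.29 (SE 0.21, adjusted p = 1.3e-09). The 3 miRNAs with the miR-99 seed together held 61545 to 65599 CPM at D0 and 15257 to 25487 CPM at D3.

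The miR-30 family, among the most abundant in the heart, had 7 of 11 tested members lower and 2 higher, with a median of -1.78. Of all tested miRNAs, 27.7% were lower and 31.0% higher. miR-30d-5p was read at 36819.6, 38472 and 39413 CPM at D0 and 15565, 18399, 18008 and 11097 CPM at D3 (log2 fold change -1.80 ± 0.16 (SE), adjusted p = 7.6e-10). miR-30a-5p had nearly the same values, 37640.2 ± 529.8 CPM (SD, n = 3) at D0 and 15818 ± 3079 CPM (n = 4) at D3 (log2 fold change -1.78 ± 0.15 (SE), adjusted p = 3.8e-10). Neither overlapped between the days. The 2 had nearly the same count in each library, and whether reads of 1 were counted for the other was not tested. miR-30e-5p and miR-30c-5p had log2 fold changes of -1.84 ± 0.15 and -1.42 ± 0.15, and the 3p product miR-30c-2-3p of -2.14 ± 0.20. The 2 higher members, miR-30b-5p and miR-30d-3p, were picked out after their values were seen. miR-30b-5p stood at 1279, 1001 and 1024 CPM at D0 and 2393, 2406, 1741 and 4235 CPM at D3 (log2 fold change 0.73 ± 0.21, adjusted p = 0.0049), and its log2 fold change was 0.48 without D3 replicate 4. The groups of miR-30b-5p did not overlap. The call of miR-30d-3p (0.53 ± 0.22, adjusted p = 0.043) was lost without that library (0.22), without D0 replicate 1, 2 or 4, and in DESeq2 (0.49, adjusted p = 0.065).

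miR-378b and miR-378c, short relatives of the metabolic miR-378a, fell with little spread. miR-378c gave 6108, 5978 and 5362 CPM at D0 and 2014, 1954, 1741 and 2184 CPM at D3 (log2 fold change -2.10 ± 0.16 (SE), adjusted p = 1.6e-10). The 4 D3 libraries lay within a narrow band below D0. miR-378b had 195 ± 16.7 CPM (SD, n = 3) at D0 and 59.0 ± 1.73 CPM (n = 4) at D3 (log2 fold change -2.26 ± 0.18 (SE), adjusted p = 1.7e-10), and miR-378a-3p, named after its values were seen, a log2 fold change of -2.06 ± 0.16. The 3 have nearly the same sequence, so reads can be assigned to the wrong one.

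HCs also held miRNAs listed for other cardiac cells, most of which fell from D0 to D3. Not all of these miRNAs separated the cell types at D0. miR-133a-3p had a mean of 694 CPM in HCs and 1143 CPM in endothelial cells, against 391 CPM in cardiomyocytes. miR-143-3p had 54709.5 CPM in endothelial cells and 29542 CPM in cardiomyocytes, against 25611 CPM in fibroblasts and 26133 CPM in HCs. miR-145a-5p had 4071 CPM in endothelial cells and 912 CPM in fibroblasts. The miR-199a products and miR-214-3p were highest in fibroblasts. Of the 9 tested cardiomyocyte miRNAs 7 were lower and none was higher (median -1.60), as were all 4 endothelial (median -1.90) and all 10 fibroblast and mural cell miRNAs (median -1.19). Under library size scaling the lower ones were 6, 4 and 7. On the TMM scale 27.7% of all tested miRNAs were lower. The 4 endothelial miRNAs are annotated on both strands of 1 locus. miR-126a-5p and miR-126b-3p had nearly the same count in each library, so the 4 are not separate observations. miR-1a-3p, the muscle miRNA and one of the 5 most abundant over the 7 libraries, was measured at 114639, 102125 and 84468 CPM at D0 and 48558, 43129, 37949.9 and 63712 CPM at D3 (log2 fold change -1.60 ± 0.21 (SE), adjusted p = 4.2e-07). In cardiomyocytes it had means of 657447 CPM at D0 and 495722 CPM at D3. Endothelial miR-126a-3p, from an exon of Egfl7, stood at 55238, 84040.1 and 90242 CPM at D0 and 17961, 19060.2, 21032 and 13607 CPM at D3 (log2 fold change -2.62 ± 0.23 (SE), adjusted p = 5.6e-10). In endothelial cells its means were 192994 and 184627 CPM on these days. No D3 library of HCs came near the lowest D0 library. miR-126b-5p, annotated on the opposite strand of the same locus, had a log2 fold change of -2.32. Its sequence is largely the reverse complement of miR-126a-3p. Whether its counts are separate from those of miR-126a-3p was not tested.

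Smooth muscle miR-143-3p gave 20593, 31220.4 and 26584 CPM at D0 and 5324, 5481, 7089.6 and 4369 CPM at D3 (log2 fold change -2.76 ± 0.21 (SE), adjusted p = 1.7e-10), and miR-145a-5p, its neighbour in the genome, 1197 ± 142 CPM (SD, n = 3) at D0 and 296 ± 73.7 CPM (n = 4) at D3 (log2 fold change -2.57 ± 0.25 (SE), adjusted p = 4.6e-09). The days did not overlap for either. Of the fibroblast miRNAs, miR-199a-3p and miR-199b-3p had identical counts, at 3477 ± 204 CPM (SD, n = 3) at D0 and 2214 ± 320.5 CPM (n = 4) at D3 (log2 fold change -1.19 ± 0.19), and miR-199a-5p overlapped between the days (-0.88 ± 0.21), a call that was lost under library size scaling (-0.32). miR-133a-3p and miR-133b-3p, also of muscle, had log2 fold changes of -1.90 ± 0.27 and -1.93 ± 0.26, and miR-499-5p, from a myosin heavy chain intron, of -1.75 ± 0.26.

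Sums were taken over the miRNAs used as markers, not all of which were highest in the named cell type. Cardiomyocyte ones summed to 85777 to 116609 CPM at D0 and 38494 to 64737 CPM at D3, with 4 of 5 called lower. Endothelial ones summed to 56673 to 91837 CPM at D0 and 14781 to 21541 CPM at D3, with 2 of 2 lower. Fibroblast and mural ones summed to 26227 to 36579 CPM at D0 and 7976 to 10022 CPM at D3, with 5 of 5 lower. Most of the cardiomyocyte sum was miR-1a-3p, and most of the fibroblast and mural sum was miR-143-3p, which was not highest in fibroblasts. The summed hematopoietic markers ran from 7219 to 10771 CPM at D0 and from 15096 to 25666 CPM at D3, with 3 of 6 higher and 2 lower. Of all tested miRNAs, 31.0% were higher and 27.7% lower. None of the markers was at 0 in any of the 7 libraries. These sums moved with the day, and their part in the changes of other miRNAs was not tested.

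Of the 7 tested erythroid miRNAs 4 fell and none rose, beside 27.7% and 31.0% of all tested miRNAs. miR-486a-5p, shared with miR-486b-5p by identical counts and abundant in both muscle and red cells, was read at 1016, 1347 and 1352 CPM at D0 and 357, 306, 292 and 254 CPM at D3 (log2 fold change -2.57 ± 0.25 (SE), adjusted p = 3.8e-09). It was at 1799 CPM in cardiomyocytes at D0. The days did not overlap. miR-451a, the most specific red cell miRNA, was at 127, 124 and 50.1 CPM at D0 and 187, 141, 118 and 353 CPM at D3 (log2 fold change 0.43 ± 0.43, adjusted p = 0.41). The 4 lower ones were the arms of miR-486a and miR-486b.

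**Figure D3:**
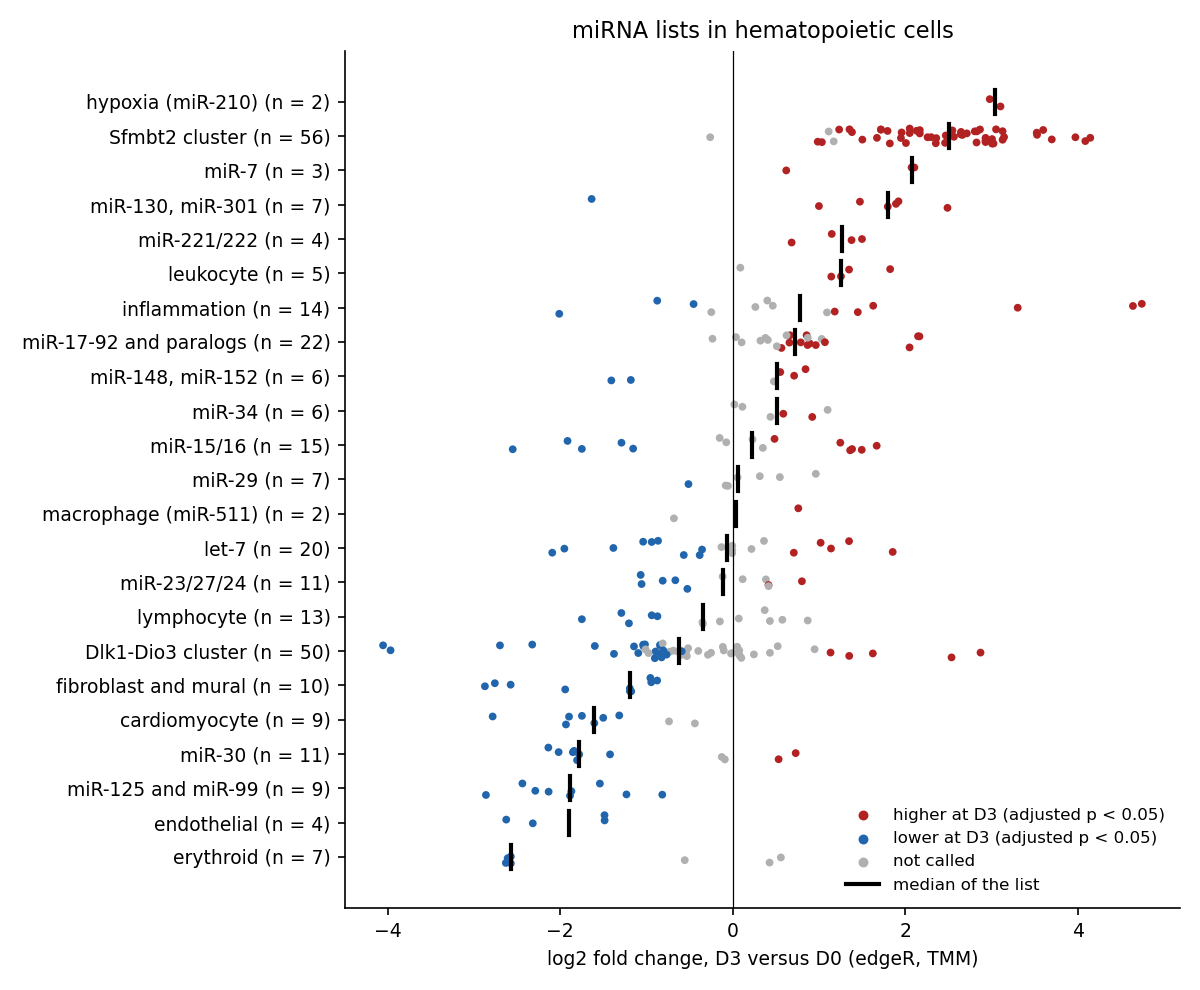
Log2 fold change from D0 to D3 of each tested member of 23 miRNA lists, with the number tested in brackets, the list's median as a black bar and a random vertical offset of the points. The list of the Sfmbt2 families lies to the right with 53 of 56 higher, and the lists of other cardiac cells lie to the left with 7 of 9, 4 of 4 and 10 of 10 lower.

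The remaining lists had calls in both directions or few calls. Of 7 tested miR-29 products, which repress collagen mRNAs, none rose and 1 fell, while under library size scaling 5 were higher and none lower, so the direction of this family depended on the scaling. miR-29a-3p had 4372 ± 87.6 CPM (SD, n = 3) at D0 and 6709 ± 2604 CPM (n = 4) at D3 (log2 fold change 0.06, adjusted p = 0.83). miR-29c-3p had a log2 fold change of -0.08, which was 0.48 under library size scaling, and miR-29b-3p of 0.96 ± 0.42 (adjusted p = 0.052). In the miR-23/27/24 clusters 2 of 11 rose and 5 fell (median -0.12), beside 31.0% and 27.7% of all tested miRNAs. Under library size scaling 6 were higher and 2 lower (median 0.42). miR-27b-3p stood at 19357, 21745 and 19839.9 CPM at D0 and 41987, 38659, 37006 and 39798 CPM at D3 (log2 fold change 0.41 ± 0.13, adjusted p = 0.0079). miR-27a-3p, of the same seed, did not pass the test (log2 fold change -0.12), and library size scaling gave 0.42. miR-24-3p was lower (-0.81 ± 0.15, adjusted p = 4.4e-05; -0.28 and not called under library size scaling), and so was miR-23a-3p, with -0.53 ± 0.13 and 0.02 there.

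The imprinted Dlk1-Dio3 cluster of chromosome 12, expressed from the maternal chromosome, had 50 of its 96 listed members tested, of which 5 were higher and 19 lower (median -0.62), beside 31.0% and 27.7% of all tested miRNAs. Scaled by library size alone, the median was -0.09, with 7 higher and 4 lower. miR-127-3p, its most abundant member, was measured at 253, 314 and 336 CPM at D0 and 132, 188, 199 and 151 CPM at D3 (log2 fold change -1.38 ± 0.22 (SE), adjusted p = 8.2e-06). The groups did not overlap. miR-379-5p, miR-541-5p and miR-434-5p overlapped between the days and had log2 fold changes of -0.83, -0.59 and -0.89, calls that were lost under library size scaling. The call of miR-541-5p was also lost without D0 replicate 2 or 4 and without D3 replicate 2 or 4 (-0.42 to -0.63).

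Several miRNAs with one seed were called in opposite directions. Of 55 seeds with at least 2 tested members, 7 had calls in both directions, 8 had all members higher and 8 had all members lower. These counts cover only the 515 tested miRNAs with a sequence. The miR-30 seed was counted as all lower without miR-30b-5p of that family, which had no sequence and was called higher. The let-7 family, which restrains growth in differentiated cells, had 9 tested members with the shared seed, of which 2 were higher and 5 lower. Of all tested miRNAs, 31.0% were higher and 27.7% lower. let-7i-5p was read at 17295, 15033 and 16148 CPM at D0 and 49425, 42399, 55173 and 41804 CPM at D3 (log2 fold change 1.02 ± 0.14 (SE), adjusted p = 1.1e-06). let-7b-5p went down, with 10141, 10411 and 11550.2 CPM at D0 and 5778, 5894, 6751 and 5298 CPM at D3 (log2 fold change -1.38 ± 0.15 (SE), adjusted p = 2.2e-08). Both groups of values were well apart from each other. miR-98-5p, at 442 ± 88.7 CPM (SD, n = 3) at D0 and 1405 ± 187 CPM (n = 4) at D3, was higher (1.14 ± 0.16), and let-7c-5p, at 25625 ± 988 CPM (SD, n = 3) at D0 and 20300.4 ± 2401 CPM (n = 4) at D3, lower (-0.87 ± 0.14). These 4 had the same direction and call under library size scaling. let-7a-5p (-0.38 ± 0.13), let-7d-5p (-0.36 ± 0.14) and let-7e-5p (-0.57 ± 0.14) were lower on the TMM scale, with values of 0.14, 0.18 and -0.04 and no call under that scaling. For let-7d-5p the CPM of every D3 library was above D0, against the direction of its TMM-scaled call.

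let-7f-5p and let-7g-5p did not pass the test (-0.13 and -0.01), while library size alone gave 0.40 and 0.52, both called higher. let-7f-5p was measured at 61288 ± 5515 CPM (SD, n = 3) at D0 and 80682 ± 10188 CPM (n = 4) at D3, and over the mean of the 7 libraries it was second to miR-21a-5p. The 9 members together held 214489 to 243686 CPM at D0 and 253901 to 341023 CPM at D3. The mean of let-7i-5p went from 16159 to 47200.2 CPM.

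The miR-15/16 family, which represses cyclins, split as well. miR-15a-5p was read at 57.5, 64.3 and 73.6 CPM at D0 and 184, 472, 105 and 472 CPM at D3 (log2 fold change 1.67 ± 0.37 (SE), adjusted p = 0.00045). miR-15b-5p, from an intron of Smc4, gave 127 ± 22.2 CPM (SD, n = 3) at D0 and 478 ± 91.7 CPM (n = 4) at D3 (log2 fold change 1.36 ± 0.21 (SE), adjusted p = 6.9e-06). miR-195a-5p fell, from 129.9, 172 and 175 CPM at D0 to 63.2, 82.0, 68.2 and 60.7 CPM at D3 (log2 fold change -1.75 ± 0.20 (SE), adjusted p = 6.3e-08), and its neighbour miR-497a-5p was lower (-1.15 ± 0.25) with overlapping groups, a call that was lost under library size scaling (-0.59). miR-195a-5p and miR-497a-5p were chosen after their values were seen. miR-16-5p, the most abundant, had 2452 ± 112 CPM (SD, n = 3) at D0 and 4211 ± 861 CPM (n = 4) at D3 and did not pass the test (0.23 ± 0.14, adjusted p = 0.16), and passed it under library size scaling (0.78). Of the neighbouring miR-322 and miR-503 genes, miR-322-3p fell (-1.29 ± 0.18).

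In the miR-148 and miR-152 family, which represses DNA methyltransferase mRNAs, miR-148b-3p stood at 1468, 1282 and 1226 CPM at D0 and 3012, 3209, 3020.4 and 3368 CPM at D3 (log2 fold change 0.71 ± 0.13 (SE), adjusted p = 6.1e-05). miR-152-3p stood at 1884, 1931 and 1863 CPM at D0 and 928, 1220.5, 961 and 1041 CPM at D3 (log2 fold change -1.41 ± 0.14 (SE), adjusted p = 3.8e-09). The former was higher and the latter lower in each D3 library than in any D0 library. miR-148a-3p, 8085 ± 246 CPM (SD, n = 3) at D0 and 16157 ± 3458 CPM (n = 4) at D3, did not pass the test (0.48 ± 0.26, adjusted p = 0.12), and was called higher under library size scaling (1.00).

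**Figure D4:**
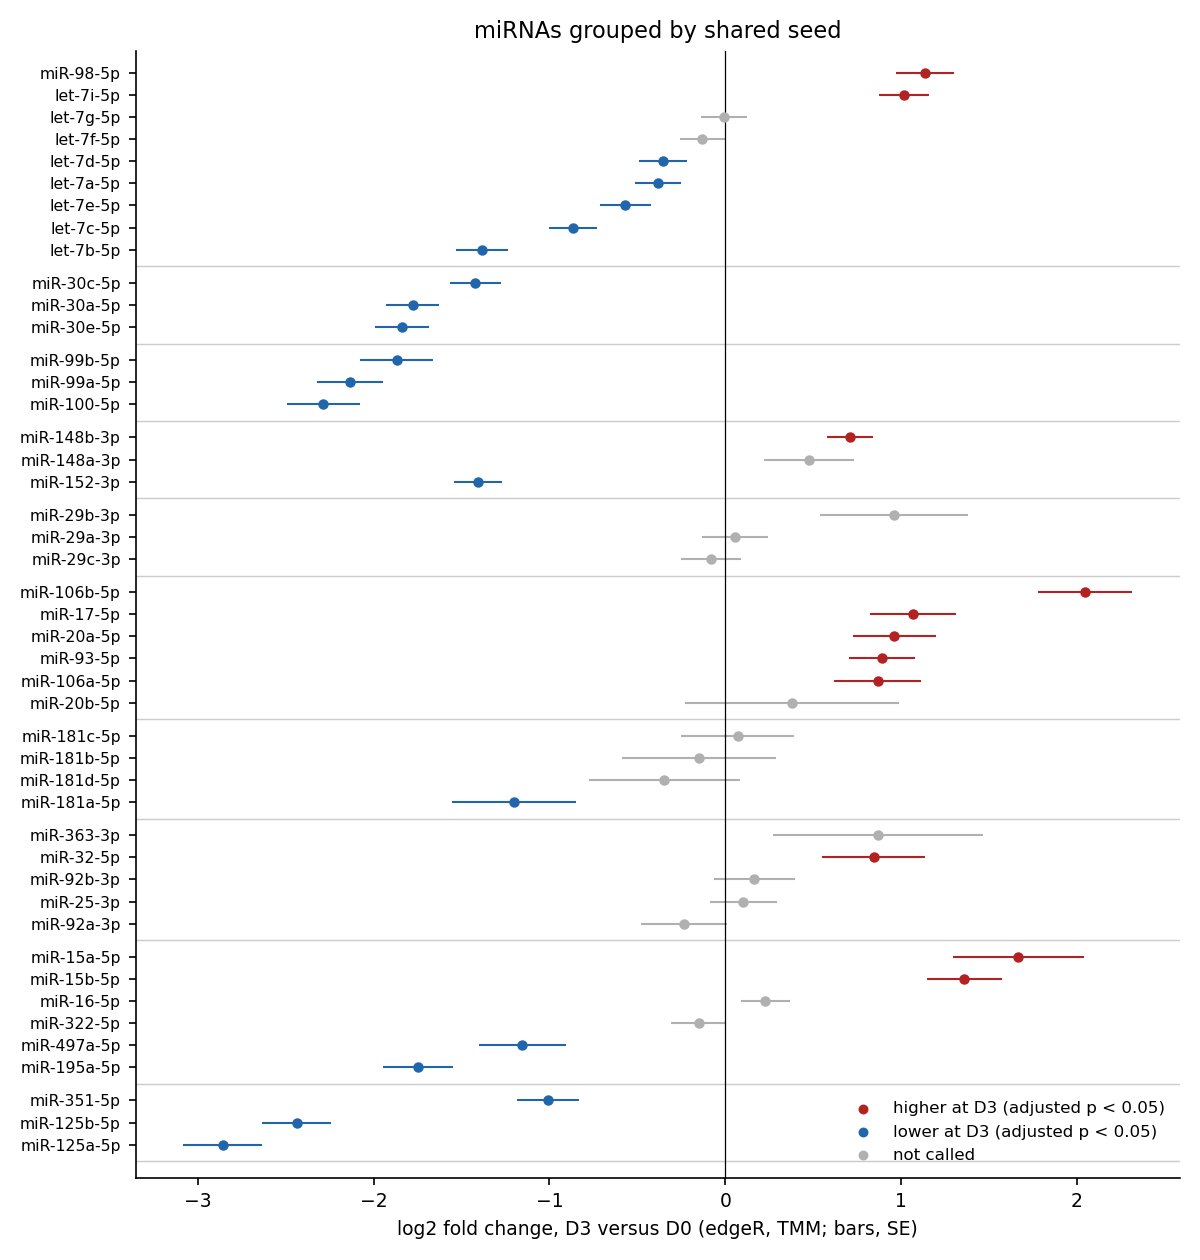
Log2 fold change from D0 to D3 with its SE for the 45 tested members of the 10 seeds that had at least 3 members and a summed mean of at least 1000 CPM at D3; lines part the seeds. The members of the let-7, miR-148 and miR-15/16 seeds lie on both sides of 0, while those of the miR-30, miR-99 and miR-125 seeds with a sequence lie below it.

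Loci were known for 478 tested miRNAs, and hairpins within 10000 bases of each other on a strand formed 33 clusters with at least 3 tested arms. In 12 clusters all calls were higher, in 13 all were lower, in 4 both occurred and in 4 there was none. All tested arms rose in the miR-221 and miR-222 cluster (3 arms), in that of miR-130b and miR-301b within 2610318N02Rik (3 arms) and in that of miR-296 and miR-298 (3 arms). All fell in the cluster of let-7e and miR-125a within Spaca6 (4 arms), in that of let-7c-1 and miR-99a within Mir99ahg (3 arms), in that of miR-195a and miR-497a (3 arms) and in that of miR-199a and miR-214 within Dnm3os (4 arms). These calls are on the TMM scale. Under library size scaling some of them were lost, among them those of let-7e-5p, miR-497a-5p and miR-199a-5p. In the Clcn5 introns, where miR-362 and miR-500 lie, 5 of 9 arms rose and 1 fell. The Smc4 cluster of miR-15b and miR-16-2 had 3 of 4 arms higher and the Mcm7 cluster of miR-106b, miR-93 and miR-25 had 4 of 6. A mature miRNA with several loci was counted in each of its clusters. The background was 31.0% higher and 27.7% lower over all tested miRNAs, and the arms of a cluster share a transcript and are not independent.

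The balance between the arms of one hairpin also changed. The log2 of the 5p count over the 3p count, with a pseudocount of 0.5, was tested with limma over 154 hairpins whose arms each averaged 10 counts or more. This ratio lies within a library and does not depend on the scaling. It differed between D3 and D0 for 51 hairpins (33.1%), with 24 shifted toward 5p and 27 toward 3p. D0 and D3 did not overlap in 41 of the 51. When the fit used only the 7 libraries of D0 and D3, 32 of 160 passed, and with the shallow D0 library kept 34 of 152.

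Among the hairpins that averaged 50 counts or more on each arm, the largest shift toward 5p was that of miR-503, of the miR-322 cluster on the X chromosome. Its log2 ratios were 1.87, 1.57 and 1.28 at D0 and 4.03, 3.84, 2.92 and 4.85 at D3 (difference 2.34 ± 0.31, adjusted p = 1e-05 in limma). The 3p arm fell (0.35 for 5p and -1.91 for 3p, log2 fold changes), and the 5p arm did not pass the test. let-7e had ratios of 8.94, 8.61 and 8.70 at D0 and 10.67, 10.45, 10.77 and 9.18 at D3 (difference 1.52 ± 0.29, adjusted p = 0.00037 in limma). Both of its arms were lower at D3, the 3p arm more (-0.57 for 5p and -2.09 for 3p). In miR-674 the 3p arm was the abundant one, with ratios of -4.12, -4.73 and -4.60 at D0 and -2.64, -3.13, -3.77 and -2.28 at D3 (difference 1.53 ± 0.31, adjusted p = 0.00068 in limma). miR-340 showed 4.04, 3.87 and 3.75 at D0 and 5.09, 5.10, 4.93 and 6.48 at D3 (difference 1.52 ± 0.28, adjusted p = 0.00024 in limma), with D3 replicate 4 apart from the rest. Here the 5p arm rose and the 3p arm did not pass the test (1.87 for 5p and 0.42 for 3p).

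Under the same minimum, the largest shift toward 3p was that of miR-30d, whose ratios were 10.32, 10.52 and 10.74 at D0 and 8.31, 8.59, 9.11 and 6.87 at D3 (difference -2.31 ± 0.34, adjusted p = 2.9e-05 in limma). Its arms were called in opposite directions (-1.80 for 5p and 0.53 for 3p), as were those of miR-23b and miR-345, the other 2 such hairpins among the 51. Unlike the ratios, these calls of single arms depend on the TMM scaling. miR-23b-3p, called lower (-0.67), had means of 2642 CPM at D0 and 2418 CPM at D3. Of the 5 lower calls in the miR-23/27/24 list, 2 were made under library size scaling. For miR-30d the higher call of the 3p arm was lost without any one of 4 libraries, as given above, and for miR-23b that of the 5p arm was lost without D3 replicate 1 (0.30) and without D0 replicate 1 or 4. The 5p counts of miR-30d were nearly those of miR-30a-5p in each library, and whether the 2 share reads was not tested. miR-21a shifted from 13.12, 12.96 and 12.95 at D0 to 11.34, 11.02, 11.85 and 10.78 at D3 (difference -1.76 ± 0.26, adjusted p = 2.9e-05 in limma). Both arms rose, and 3p rose more (1.45 for 5p and 3.30 for 3p). It remained by far the rarer arm, with 313, 1785, 183 and 345 counts at D3 against 811975, 3707411, 678731 and 607095 for 5p. In the Sfmbt2 cluster, miR-467a had 5.86, 6.04 and 7.41 at D0 and 4.01, 4.35, 4.32 and 4.13 at D3 (difference -2.23 ± 0.37, adjusted p = 8.3e-05 in limma) and miR-467b 2.29, 2.10 and 1.62 at D0 and -0.05, 0.12, -0.37 and 0.08 at D3 (difference -2.06 ± 0.24, adjusted p = 6.3e-06 in limma). At D0 the 3p arm of miR-467a held only 24, 20 and 9 counts. With the shallow D0 library kept, the shifts of miR-467a (-0.62, adjusted p = 0.68) and miR-21a (-1.11, adjusted p = 0.072) did not pass the test.

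**Figure D5:**
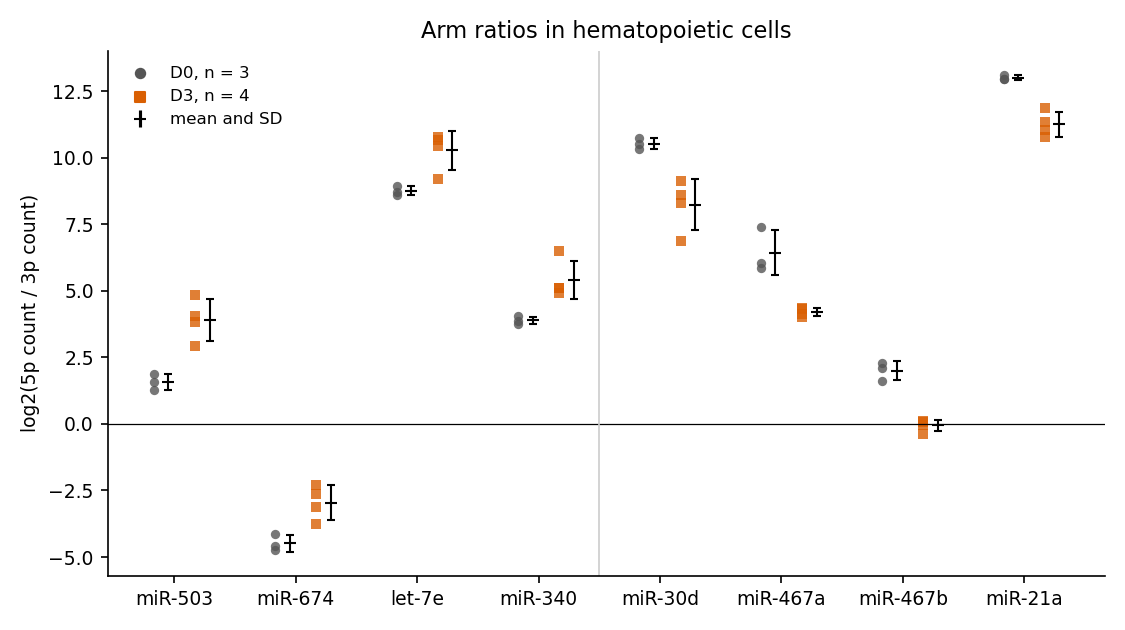
Log2 ratio of 5p to 3p counts in each D0 library (grey circles, n = 3) and D3 library (orange squares, n = 4), with the mean and SD beside them, for the 4 largest shifts toward 5p (left of the line) and the 4 largest toward 3p (right) among hairpins that averaged 50 counts or more on each arm. In each of the 8 hairpins the D3 values lie apart from the D0 values.

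Fibroblasts (FBs), isolated from hearts of the same experiment, were prepared with the same RNA input and number of PCR cycles, and the change in HCs was set against the change in FBs for the 6 largest rises and 6 largest falls. These 12 were chosen for large changes in HCs. The test was that of the difference between the 2 changes in 1 edgeR fit of 47 HC and FB libraries. The methods describe the pools of a time point as drawn from matched animals, so HC and FB libraries can share mice. The fit treated these libraries as independent, and no alternative paired them. The study left out 1 FB library of D0, and all 4 were used here. Without any one of them, 232 to 257 differences passed. Over 716 miRNAs, 275 differed (38.4%), with the HC change above the FB change in 64 and below it in 211. The median difference was -0.52. Scaled by library size alone, the median was 0.12, with 121 above and 136 below, so the overall split depends on the scaling. The differences below are on the TMM scale and are to be read against that median. The HC changes of this fit are smaller for rises and larger for falls than those above, and its TMM factors were computed over both cell types.

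miR-210-3p rose in both cell types (adjusted p in FBs = 0.001 in edgeR) and rose more in HCs. FBs had means of 40.9 ± 14.7 CPM (SD, n = 4) at D0 and 100.4 ± 49.7 CPM at D3, and the log2 fold changes were 2.74 ± 0.29 in HCs and 1.03 ± 0.25 in FBs (difference 1.71 ± 0.36 (SE), adjusted p = 0.00017). miR-340-5p rose in HCs (1.53 ± 0.21), and its value in FBs was 0.31 ± 0.18 (adjusted p = 0.2, difference 1.22 ± 0.27 (SE), adjusted p = 0.00031). miR-142a-5p, at 17.9 CPM in FBs at D0, had log2 fold changes of 1.47 ± 0.40 and -0.12 ± 0.37 (difference 1.59 ± 0.54 (SE), adjusted p = 0.016). The miR-7 pair rose in both cell types. In FBs miR-7a-5p went from 498 to 3053 CPM (2.38 ± 0.20, adjusted p = 4.5e-13), and the difference to HCs did not pass the test (-0.61 ± 0.28, adjusted p = 0.088). That of miR-7b-5p passed it narrowly (difference -0.69 ± 0.29 (SE), adjusted p = 0.0498), and was lost in 15 of 20 alternatives, to -0.06 under library size scaling and to between -0.29 and -0.67 without FB D0 replicate 1, 2, 3 or 4, FB D3 replicate 1, 2 or 4, HC D0 replicate 1 or 4, or HC D3 replicate 2 or 4. miR-106b-5p did not differ beyond the threshold (0.38 ± 0.36, adjusted p = 0.45), and did under library size scaling (1.07).

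All 6 falls were larger in HCs, and each of these differences also passed the test under library size scaling. miR-126a-3p had log2 fold changes of -2.96 ± 0.27 in HCs and -0.08 ± 0.24 in FBs (difference -2.88 ± 0.36 (SE), adjusted p = 1.8e-08), and miR-145a-5p of -2.92 ± 0.27 and 0.23 ± 0.24 (difference -3.15 ± 0.36 (SE), adjusted p = 2.5e-09). For miR-125a-5p, which fell in both, they were -3.19 ± 0.25 and -1.10 ± 0.22 (adjusted p in FBs = 0.00011, difference -2.09 ± 0.32 (SE), adjusted p = 1.7e-06). miR-125b-5p had -2.77 ± 0.22 and -0.90 ± 0.20 (difference -1.87 ± 0.29 (SE), adjusted p = 1.7e-06). The differences of miR-143-3p and miR-486a-5p were -2.50 ± 0.29 and -2.96 ± 0.64.

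For the named miRNAs, means in HCs were set side by side over all days, with 3 libraries at D0 and 4 on each other day. No test was made. The 12 rises and 12 falls were chosen for large changes at D3, which favours D3 as their extreme day. Of the 12 largest rises, 11 had their highest mean at D3 and miR-467a-5p had it at D1. miR-210-3p went from 37.9 CPM at D0 to 306 at D1 and 483 at D3, and then to 120.3 at D7 and 82.5 by D14, with 68.0 at D28. miR-21a-5p stayed high for longer, with 146906 CPM at D3, 144961 at D7 and 87765 at D28. miR-7a-5p, at 6737 CPM at D1, was back at 2062 by D28, against 1550.3 at D0. Of the 12 largest falls, 11 had their lowest mean at D3, and miR-126b-5p had it at D7. miR-125b-5p went from 1554 CPM at D3 to 8968 at D28, above its 5819 at D0. miR-126a-3p, in contrast, was at 21452 CPM at D28, against 76507 at D0 and 17915 at D3. miR-147-5p had means of 72.0 CPM at D1, 60.7 at D3 and 9.25 at D28.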

How the data were processed

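Small RNA libraries were prepared by the authors from pooled HC RNA with the NEBNext small RNA kit. The authors trimmed adaptors, removed reads shorter than 18 nt and aligned the rest to mature miRNA sequences with the nf-core small RNA pipeline. The submitters' processing notes name Trim Galore, Bowtie2, SAMtools and the mm10 build. The authors deposited 1 table per library with the unscaled count of reads aligned to each mature miRNA. A line for reads without a match was kept out of library sizes. How reads matching several miRNAs were counted is not given in the sources used here, and 77 miRNAs in 32 sets had counts identical to another's. Hairpin counts were not used.

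Groups were taken from the labels. The study removed 1 D0 library each of HCs and FBs without naming them. All FB libraries were kept here, and for HCs a minimum of 100000 counts removed D0 replicate 3. miRNAs were filtered with filterByExpr, scaled with TMM and tested with edgeR 4.0.16 (R 4.3.3) over 23 HC libraries, with Benjamini-Hochberg adjustment at 0.05. The SE of an edgeR log2 fold change was derived as its absolute value divided by the square root of the test's F statistic. Arm ratios were tested with limma 3.58.1, and DESeq2 1.42.0 served as an alternative. Scripts were tested on simulated data, and tables were handled with Python 3.11.15 and pandas 2.3.3. No pair of replicate libraries agreed within sampling noise (chi-square per degree of freedom of at least 145). Hosts were taken from GENCODE vM21 and loci from RefSeq, both of GRCm38. The depth of 3245029 counts in the shallowest library puts 1 CPM at about 3 counts.

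The miRNAs named were the 12 largest rises and 12 largest falls among those called, averaging 100 CPM or more without overlapping CPM, the 5 most abundant, up to 4 most abundant members of each list, the 4 largest arm shifts in each direction with at least 50 counts per arm, and, against FBs, the 6 largest of each direction. Members and lists were chosen with earlier results of these data known. Others that are named were picked after their values were seen. Alternatives were DESeq2, library size scaling, no filter, only D0 and D3 libraries, replicate 3 of D0 kept, a replicate block, thinned libraries, other pseudocounts and minimums for arms, and leaving out each library.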

Additional observations from a re-analysis of the deposited data

Results flagged for a closer look

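Between HCs and FBs, 10 of the 12 compared miRNAs differed in their change from D0 to D3 (edgeR, adjusted p under 0.05, log2 scale), beside 38.4% of all 716. The 12 were chosen for large changes in HCs. The HC change was above the FB change for miR-210-3p (1.71), miR-340-5p (1.22) and miR-142a-5p (1.59). It was below for miR-7b-5p (-0.69, and -0.06 under library size scaling, where it did not pass), miR-125a-5p (-2.09), miR-143-3p (-2.50), miR-126a-3p (-2.88), miR-145a-5p (-3.15), miR-486a-5p (-2.96) and miR-125b-5p (-1.87).

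In 216 groups of 4 libraries, 1 library was set apart from the other 3 by Dixon's test in 11, and chance gives about 1 in 20. The gap as a share of the group's range was 0.857 for the summed counts of HCs at D3, where replicate 2 was the highest. Among HCs at D3 it was 0.930 for miR-7b-5p, 0.881 for miR-24-3p, 0.971 for miR-7a-1-3p, 0.968 for miR-147-3p, 0.861 for miR-18a-5p and 0.904 for let-7e-3p, and 0.892 for the arm ratio of miR-340. In other groups it was 0.944 for miR-142a-5p in HCs at D1, 0.943 for miR-126a-3p in FBs at D3 and 0.905 for miR-145a-5p in FBs at D0. No cause was tested.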

How the results depend on the processing

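The count of changed miRNAs was 359 to 383 with DESeq2 (381), without the filter (383 of 1435), with D0 and D3 libraries only (361), with the shallow library kept (359) and with a replicate block (371), and 295 of 457 in thinned libraries, which tested fewer miRNAs. With library size as the only scaling, 296 miRNAs were higher and 105 lower. The values of let-7f-5p (0.40), let-7a-5p (0.14), miR-146b-5p (0.078), let-7g-5p (0.52), miR-27a-3p (0.42), miR-23a-3p (0.016), miR-29c-3p (0.48) and let-7d-5p (0.18) then turned positive. The difference between HC and FB changes was then above 0 in 121 and below in 136. Leaving out 1 library at a time gave 334 to 377 changed miRNAs (175 to 196 higher, 158 to 182 lower), 38 to 58 arm shifts (17 to 28 toward 5p, 20 to 30 toward 3p) and 232 to 281 HC to FB differences (53 to 82 above, 152 to 217 below). With D0 and D3 libraries only, 32 arm shifts passed, 11 of them toward 5p, and with the shallow library kept 16 were toward 3p; the cause was not tested. Over 134 single miRNAs, 1774 of 1870 alternatives kept the direction and call, 67 lost the call, 21 gained it and 8 reversed. The pools of D0 and D3 came from different mice, so the replicate number does not pair them by animal. Deviations from the group means of same-numbered libraries correlated at 0.17, 0.03 and -0.02. Whether the replicate number marks a shared preparation was not tested. The replicate block gave 371 changed miRNAs, 53 arm shifts and 270 HC to FB differences. The smallest D3 library, with 3245029 counts, limits what can be seen of miRNAs of a few CPM.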
